A study of Caenorhabditis elegans with 3 samples.

Results

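The genes described here encode proteins of the mitochondrial ribosome, chosen as every gene with an mrpl symbol (large subunit) or an mrps symbol (small subunit) followed by its number. The rule found 70 genes among the 20392 in the table, 41 with an mrpl and 29 with an mrps symbol. The RNA came from whole animals of the nematode Caenorhabditis elegans, wild type N2 (Bristol), which had no treatment, fed on OP50 bacteria at 25 °C and were harvested from synchronized cultures as mid-L4 larvae (the last larval stage) at the 29 h time point. The series held 1 group of 3 libraries of ribosomal-RNA-depleted total RNA, so no genotype, treatment or stage was compared and no test between groups exists. The values were TPM, a level per gene that is divided by transcript length and scaled so that each library sums to 1000000. Read depth cannot be recovered from TPM and is unknown here, and errors are SDs over the 3 libraries. All 18 tissue markers checked, from muscle, pharynx, intestine, neurons, germ line, hypodermis and sperm, were detected. In whole animals, fewer cells of a type and less RNA per cell cannot be told apart.

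Mitochondrial ribosomes descend from the ribosomes of bacteria and translate the few proteins still encoded in mitochondrial DNA, which are subunits of the respiratory chain and the ATP synthase. Their RNAs are encoded in mitochondrial DNA and their proteins in the nucleus, so the proteins are made in the cytosol and imported. Some belong to families shared with bacteria, others are found in mitochondria alone, and the symbols follow the human numbering. In C. elegans, lowering mrps-5 or related genes by RNA interference is known to lengthen life and to switch on the mitochondrial unfolded protein response.

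Every mitochondrial ribosomal protein gene was present in every library, most of them within a narrow band. All 70 genes reached 1 TPM or more in all 3 libraries, the limit used for detection, which 61.1% of all genes reached. The lowest value of any of them in any library was 19.8 TPM and the highest 273 TPM. The median of their means was 37.7 TPM, and the middle of the distribution lay between 32.1 and 49.9 TPM (the quartiles). All 20392 genes had a median of 3.48 TPM, and the 13530 genes that averaged 1 TPM or more had a median of 8.55 TPM. The lowest member lay above 83.2% of all genes and the highest above 98.0%. Of the 70 means, 12 lay below 30 TPM, 41 between 30 and 50 TPM, 14 between 50 and 100 TPM and 3 above 100 TPM. Summed, the family held 3109, 3272 and 3551 TPM in replicates 1, 2 and 3, which is 0.331% ± 0.0224 (SD, n = 3) of all TPM.

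The members differed more from each other than a member differed between libraries. On the log2(TPM + 1) scale the SD over the 70 genes was 0.62, while the median SD of a gene over the 3 libraries was 0.10. Ordered by mean, 66 of the 69 neighbouring pairs nevertheless had overlapping ranges over the libraries, so most places in the order are not resolved. The 3 steps without overlap were at the top, from mrpl-36 to mrpl-2, from mrpl-2 to mrpl-44 and from mrpl-44 to mrps-14.

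**Figure D1:**
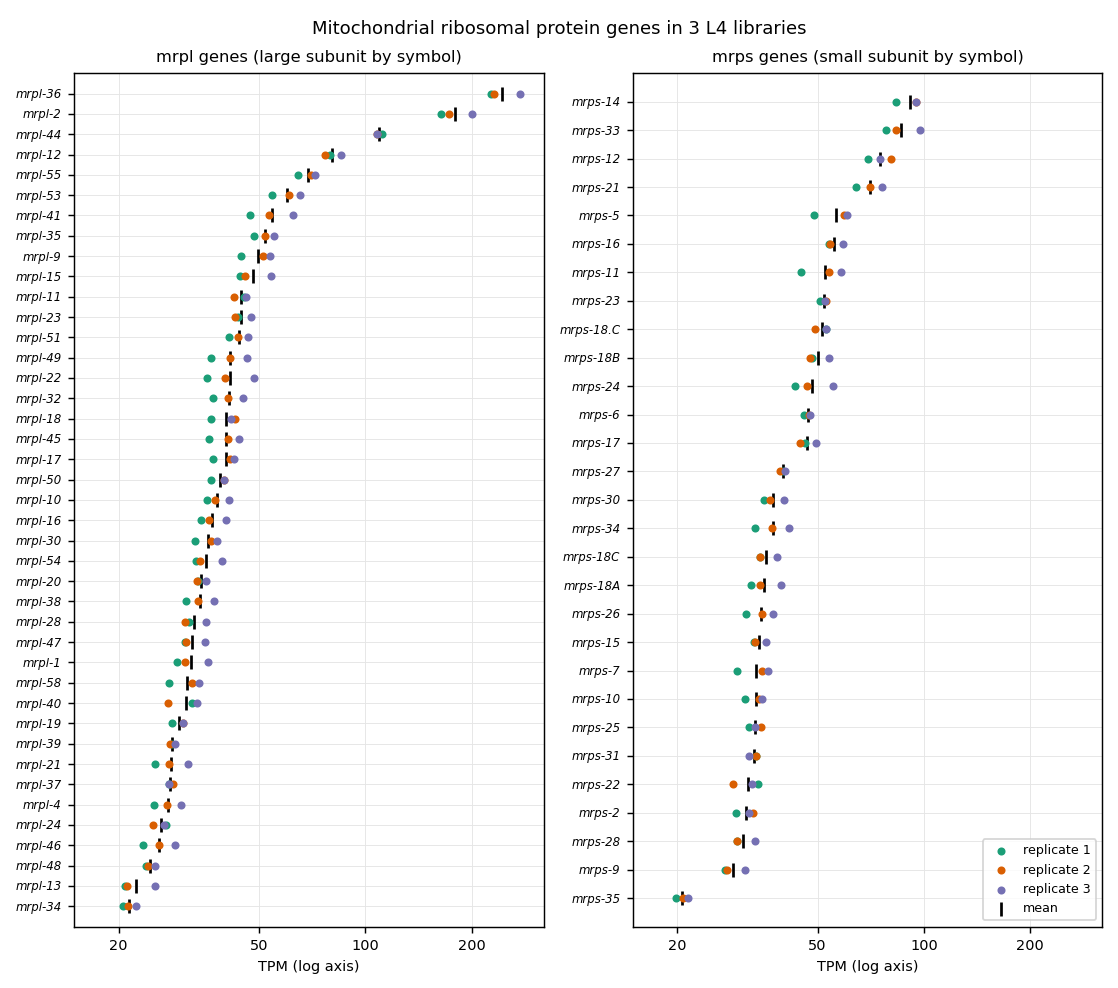
TPM of each mitochondrial ribosomal protein gene (log axis) in replicates 1 (green), 2 (orange) and 3 (violet), with the mean as a bar, for the 41 mrpl genes (left) and the 29 mrps genes (right). Apart from mrpl-36, mrpl-2 and mrpl-44 all genes stay below 100 TPM, and the replicate 3 point is the rightmost in 58 of 70 genes.

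The 3 highest genes encode large-subunit proteins and held 16.07% of the family's TPM. The highest was mrpl-36 (chromosome III, 9847626 to 9848116 in WBcel235, 2 exons), whose bacterial relative is a very small zinc-binding protein, with 227, 231 and 273 TPM in replicates 1, 2 and 3. Its mean was 244 ± 25.7 TPM (SD, n = 3), and replicate 3 stood apart from the other libraries. Its single annotated transcript has 309 nt, less than the longest transcript of any other member, and TPM of short transcripts depends strongly on the length assumed for them. Next came mrpl-2 (chromosome IV, 773237 to 776655), which encodes the relative of bacterial L2, a protein near the site of peptide bond formation. It had 164, 173 and 201 TPM, a mean of 179 ± 19.4 TPM. Beside a transcript of 1078 nt with 6 exons, the annotation gives mrpl-2 a single-exon transcript of 213 nt within the last exon of the longer form, the only transcript under 300 nt in the family. The gene value does not show how much of it was assigned to that form.

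The third, mrpl-44 (chromosome III, 9084310 to 9089375, 8 exons), encodes a protein with a ribonuclease III-like fold in its human relative. It had 111, 108 and 108 TPM, a mean of 109 ± 1.95 TPM, with nearly equal libraries. In WBcel235 its first 2 exons are shared with mccc-2 (chromosome III, 9086744 to 9089375), a gene named for a subunit of the leucine-degrading enzyme methylcrotonyl-CoA carboxylase. The other exons of mccc-2 lie within the long second intron of mrpl-44, and the shared 166 bases are 9.41% of the exon bases of mrpl-44. The TPM table has a row for mrpl-44 and none for mccc-2. Whether the row holds RNA of mrpl-44, of mccc-2 or of both is not stated, so the level of mrpl-44 is uncertain.

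**Figure D2:**
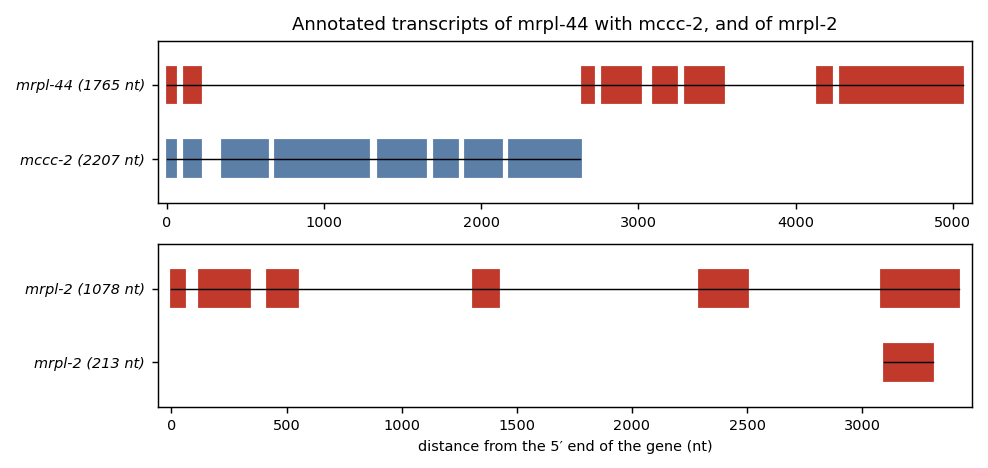
Exons (boxes) of the annotated transcripts of mrpl-44 and mccc-2 (top) and of mrpl-2 (bottom), by distance in nt from the 5′ end of the gene. The mrpl-44 and mccc-2 transcripts (1765 and 2207 nt) share their first 2 exons, and the 213 nt transcript of mrpl-2 lies inside the last exon of the 1078 nt transcript.

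The other high mrpl genes were mrpl-12 and mrpl-55. The protein of mrpl-12 forms the stalk that receives elongation factors, and in bacteria and human mitochondria it is present in several copies per ribosome, unlike other ribosomal proteins. It (chromosome III, 10707761 to 10708521) had 79.5, 77.0 and 85.3 TPM, a mean of 80.6 ± 4.28 TPM. The stalk partner mrpl-10, which anchors mrpl-12 to the ribosome, had 35.7, 37.4 and 41.2 TPM, so that mrpl-12 was above it in 3 of 3 libraries and the ranges did not overlap. At the base of the stalk, mrpl-11 stood between them at 44.5 ± 1.73 TPM, and mrpl-1, of the L1 stalk on the other side of the subunit, had 32.0 ± 3.43 TPM. Of the exon bases of mrpl-1, 18.1% are shared with emc-6 on the same strand, which had 53.9 TPM on average. The gene mrpl-55, of a family without a bacterial relative, had 68.7 ± 3.95 TPM.

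Genes for proteins around the exit of the peptide tunnel lay between 26.4 and 44.5 TPM. Of the relatives of bacterial tunnel proteins, mrpl-23 had 44.5 ± 2.46 TPM, mrpl-22 41.3 ± 6.45 TPM, mrpl-47 (the L29 relative) 32.3 ± 2.45 TPM and mrpl-24 26.4 ± 1.17 TPM. The gene mrpl-45, whose human relative ties the tunnel exit to the inner membrane, had 40.3 ± 3.92 TPM. The ranges of mrpl-24 and mrpl-23 over the libraries did not overlap (25.1 to 27.3 and 42.7 to 47.3 TPM).

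Besides mrpl-24, the lowest mrpl genes were mrpl-34, mrpl-13, mrpl-48 and mrpl-46. The lowest, mrpl-34 (chromosome I, 10193242 to 10193999), had 20.6, 21.3 and 22.5 TPM. It was followed by mrpl-13, a relative of the early assembling bacterial L13, with 20.9, 21.2 and 25.3 TPM. The proteins of mrpl-48 and mrpl-46 belong in human mitochondria to the central protuberance, the crown of the large subunit, and the genes had 24.5 ± 0.757 and 26.1 ± 2.67 TPM. The ranges of these 4 genes overlapped in part, and none exceeded 28.8 TPM in any library.

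Among the mrps genes, the highest included 3 of small bacterial-type proteins. The highest was mrps-14 (chromosome II, 10240277 to 10242490), a protein of the head of the small subunit, with 83.6, 94.6 and 94.8 TPM and a mean of 91.0 ± 6.44 TPM. It was followed by the mitochondria-specific mrps-33 at 86.3 ± 10.02 TPM, by mrps-12, whose bacterial relative S12 lines the decoding site, at 74.95 ± 5.64 TPM, and by mrps-21 at 70.3 ± 5.94 TPM. The range of mrps-33 overlapped those of mrps-14 and mrps-12, whose own ranges did not overlap. The gene mrps-5 (chromosome V, 12563487 to 12565801), whose bacterial relative lines the channel through which mRNA enters, had 48.7, 59.3 and 60.7 TPM. Its mean was 56.3 ± 6.56 TPM, with replicate 1 below the other libraries.

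The lowest mrps gene was mrps-35 (chromosome V, 18981306 to 18985865), at 19.8, 20.8 and 21.4 TPM, the lowest of the whole family with 20.7 ± 0.791 TPM. Above it stood mrps-9 at 28.7 ± 2.14 TPM, mrps-28 at 30.8 ± 2.14 TPM, mrps-2 at 31.4 ± 1.77 TPM and mrps-22 at 31.8 ± 2.68 TPM. The ranges of these last 4 overlapped. The gene dap-3 encodes the GTP-binding small-subunit protein and lacks an mrps symbol, so it is not among the 70. It had 36.1, 37.7 and 42.8 TPM, a mean of 38.9 ± 3.53 TPM, close to the median of the family. The symbols mrps-18.C (chromosome II) and mrps-18C (chromosome III) belong to separate genes, at 51.6 ± 2.0 and 35.7 ± 2.31 TPM. Their annotated transcripts differ in length, with 483 nt in mrps-18.C and 1363 nt in mrps-18C. Both were counted as small-subunit genes of bacterial families by symbol alone, which is unsure for mrps-18C.

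The subunits had nearly equal medians. On the log2(TPM + 1) scale the mrpl genes had a median of 5.28 ± 0.087 (SD, n = 3), the mrps genes one of 5.27 ± 0.094 and both together 5.27 ± 0.091, where all genes had 2.13 ± 0.052. The difference of mrpl minus mrps was 0.012, 0.0087 and -0.00062 in replicates 1, 2 and 3, a mean of 0.0066 ± 0.0065, and its sign differed between libraries. In human ribosomes the relatives of mrps-30 and mrps-18A sit in the large subunit. With them counted there, a choice made after the values were seen, the difference was -0.10 ± 0.062. The SD over genes on this scale was 0.71 for the mrpl genes, which include the 3 highest members, and 0.49 for the mrps genes. The quartiles ran from 31 to 44.5 TPM in the mrpl and from 33.4 to 51.9 TPM in the mrps genes.

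Genes of bacterial ribosomal families had a slightly higher median than genes of mitochondria-specific families. The 42 genes of bacterial families had a median mean of 40.3 TPM and the 28 mitochondria-specific genes 36.4 TPM. The difference of their median log2(TPM + 1) was 0.10, 0.18 and 0.084 in replicates 1, 2 and 3, a mean of 0.12 ± 0.050, and above 0 in 3 of 3 libraries. That SD covers the libraries alone, with the same genes in each. Despite their number, mrps-18A and mrps-18B were counted as mitochondria-specific, and the difference with them counted as bacterial was not computed. Over genes the SD on this scale was 0.68 in the bacterial and 0.53 in the mitochondria-specific families, larger than the difference. Both groups held high and low genes. The bacterial families included mrpl-36 and mrpl-2 as well as mrpl-34 and mrpl-13, and the mitochondria-specific ones mrps-33 and mrpl-55 as well as mrps-35 and mrpl-48.

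Genes with short transcripts tended to have higher TPM. The longest annotated transcript of a member measured 755 nt in the median, from 309 nt in mrpl-36 to 2164 nt in mrps-31, while detected protein-coding genes had a median of 1340 nt. Across the 70 genes, Spearman's rho between this length and the mean TPM was -0.36, given as a description because all genes come from the same libraries and TPM itself divides by length. It was -0.43 over the 67 genes below the 3 highest and -0.14 over 12233 detected protein-coding genes. The 22 members under 650 nt had a median of 49.96 TPM and the 22 members over 1000 nt one of 34.0 TPM. The genes were compact, with 1 to 9 exons and a median of 4, where detected protein-coding genes had 6. A single annotated transcript was given for 61 of 70, a share that was not computed for other genes.

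**Figure D3:**
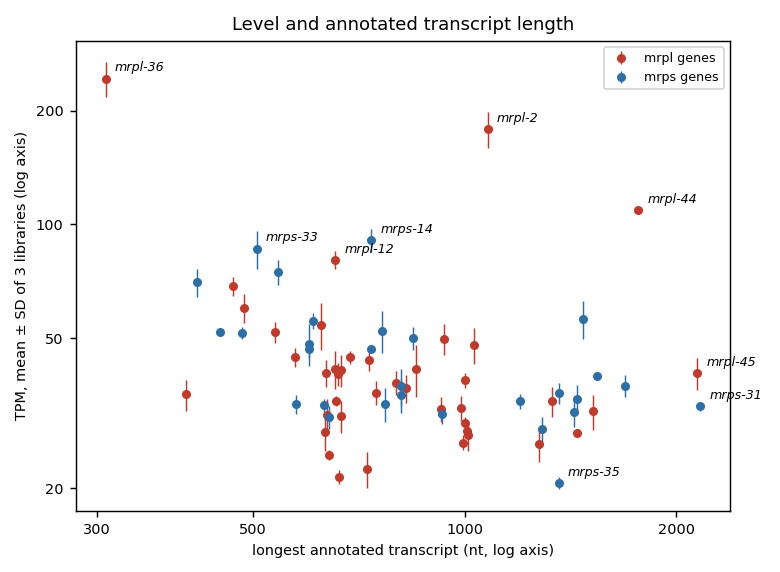
Mean TPM (log axis, error bars show the SD over 3 libraries) against the longest annotated transcript in nt (log axis) for the mrpl (red) and mrps (blue) genes. The gene farthest left, mrpl-36, is the highest, mrpl-2 and mrpl-44 lie far above other genes of their length, and the remaining genes over 1000 nt lie between 20.7 and 56.3 TPM.

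The family was higher in replicate 3 than in the other libraries by a small and widely shared amount. Of the 70 genes, 58 were highest in replicate 3, which held for 39.5% of the genes averaging 1 TPM or more and for 35.9% of those averaging 20 TPM or more. Replicate 1 was the lowest library in 53 of 70, against 38.0% of genes averaging 1 TPM or more. The ratio of replicate 3 to replicate 1 had a median of 1.14 over the 70 genes, a log2 ratio of 0.19, and ran from -0.065 to 0.44 on the log2 scale. Among the 3524 genes averaging 20 TPM or more the median log2 ratio was -0.029. The pattern was seen in 36 of 41 mrpl and 22 of 29 mrps genes. With 3 libraries of 1 group this difference was not tested. After median-of-ratios rescaling, 55 of 70 genes were highest in replicate 3 (37.9% of genes averaging 1 TPM or more), and 52 (36.4%) when the 100 most abundant genes were left out of the total.

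The genes that varied most had this pattern. The largest coefficient of variation was that of mrpl-22, with 35.6, 40.1 and 48.3 TPM (15.6%), followed by mrpl-41 with 47.02, 53.3 and 62.4 TPM (14.2%). Then came mrps-11 with 44.96, 53.8 and 58.3 TPM, mrps-24 with 43.2, 46.6 and 55.2 TPM, and mrps-5. Even mrpl-22 differed only 1.36-fold between its highest and lowest library. None of the 70 genes differed 2-fold, while 15.4% of detected genes did, and 491 of 3523 detected genes averaging 20 TPM or more. Of the other gene lists described below, only the mitochondrially encoded genes held any (1 of 12). Genes averaging 20 TPM or more had a median coefficient of variation of 10.2%. Cytosolic ribosomal genes had 4.70%, respiratory chain genes 3.24%, import genes 7.30% and mitochondrially encoded genes 10.99%. The median of the members was 7.44%, so steadiness was not particular to this family. Without replicates 1, 2 and 3 in turn it was 5.37%, 9.09% and 4.82%, each over fewer libraries. The steadiest were mrps-27, a pentatricopeptide repeat protein in human, with 39.8, 39.1 and 40.3 TPM (1.51%), mrpl-39 (1.6%), mrpl-37 (1.6%), mrpl-44 (1.78%) and mrps-6 (1.79%). In 6 genes replicate 3 was below replicate 1, namely mrps-31, mrps-22, mrpl-44, mrpl-24, mrpl-37 and mrps-18.C, of which mrps-31 and mrps-18.C are named after their values were seen.

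Other lists divided over the same libraries. Of the 82 cytosolic ribosomal protein genes, 5 were highest in replicate 3 and 61 in replicate 1 (40.9% of genes averaging 1 TPM or more, and 44.3% of those averaging 20 TPM or more, were highest in replicate 1), and of 35 nuclear genes for respiratory chain and ATP synthase subunits 1 was highest in replicate 3. Replicate 3 was the highest library for 39.5% of genes averaging 1 TPM or more and for 35.9% of those averaging 20 TPM or more. It was highest for 8 of 12 import genes and 9 of 11 genes of the mitochondrial stress response and protein quality control. The same held for 7 of 11 mitochondrial aminoacyl-tRNA synthetases and 5 of 6 genes of mitochondrial DNA upkeep and transcription. It also held for 3 of 4 translation factors and 8 of 12 mitochondrially encoded genes. These lists are short, and their counts were not tested. The gene dap-3 was highest in replicate 3 as well. Tissue markers also differed between libraries. The summed level of 3 hypodermis markers was 217, 139 and 60.7 TPM in replicates 1, 2 and 3 and that of 2 sperm markers 186, 67.2 and 39.8 TPM, and all 5 were highest in replicate 1. The 2 pharynx markers summed to 140, 173 and 178 TPM, the 3 germ line markers to 90.9, 97.6 and 102 TPM, the 2 body wall muscle markers to 789, 774 and 760 TPM, the 3 intestine markers to 2085, 1823 and 1722 TPM and the 3 neuron markers to 76.6, 76.7 and 72.9 TPM. Markers of a tissue did not all share the order of their sum. The protease gene asp-1 made up nearly all of the intestine sum, with 2059, 1793 and 1694 TPM, while elt-2, the intestinal GATA factor, had 5.53, 6.89 and 8.47 TPM. Of the neuron markers, unc-119 and ric-4 were highest in replicate 3 and snb-1 lowest there. None of the 18 markers was at 0, and their part in the pattern of the mitochondrial ribosomal genes was not tested.

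**Figure D4:**
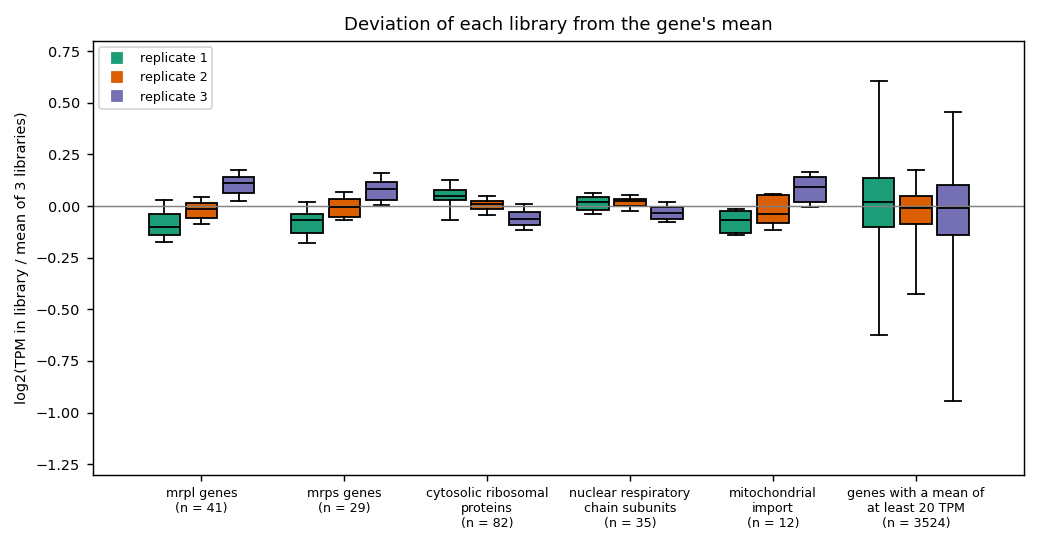
Log2 of the TPM in a library over the gene's mean of 3 libraries, for replicates 1 (green), 2 (orange) and 3 (violet) in 6 groups of genes. Boxes show the quartiles and the median, whiskers the 5th to 95th percentile; both subunits of the mitochondrial ribosome are below 0 in replicate 1 and above 0 in replicate 3 in the median, and the cytosolic ribosomal genes are the other way round.

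Among lists of related genes, the mitochondrial ribosomal proteins lay below the respiratory chain and above the synthetases in their medians, with overlap between single genes. The cytosolic ribosomal protein genes had a median of 2908 TPM, 77.1 times that of the mitochondrial ones, and 3 of 82 lay below mrpl-36. They ran from rpl-42 at 1.47 ± 0.807 TPM to rpl-39 at 47320.2 ± 2613 and rpl-29 at 55327 ± 2745 TPM. The difference of the median log2(TPM + 1) was 6.37, 6.27 and 6.09 in replicates 1, 2 and 3. The 12 mitochondrially encoded genes, the templates of these ribosomes, had a median of 313 TPM, with means from 3.66 to 1673 TPM, and the 35 nuclear respiratory chain and ATP synthase genes one of 216 TPM. Among the latter, ucr-2.3 was lowest at 34.8 ± 1.13 TPM, and cox-7C at 1209.9 ± 47.3 and the cytochrome c gene cyc-2.1 at 1705 ± 57.9 TPM were highest. Of the translation factors, the elongation factor genes tufm-1 (EF-Tu), gfm-1 (EF-G) and tsfm-1 (EF-Ts) had 151 ± 8.01, 52.3 ± 3.45 and 39.0 ± 1.59 TPM, and tufm-2 had 22.9 ± 1.18 TPM. The 11 mitochondrial aminoacyl-tRNA synthetases, which charge the tRNAs, had a median of 13.1 TPM, from pars-2 at 45.05 ± 1.23 and iars-2 at 35.4 ± 0.937 TPM down to rars-2 at 6.39 ± 0.684 TPM. Genes for mitochondrial DNA upkeep and transcription had a median of 11.95 TPM, with the single-stranded DNA-binding protein gene mtss-1 at 80.7 ± 2.71 TPM, the RNA polymerase gene rpom-1 at 6.93 ± 0.748 TPM and the helicase gene twnk-1 at 0.910 ± 0.279 TPM, the only one of these 6 genes that was not detected.

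**Figure D5:**
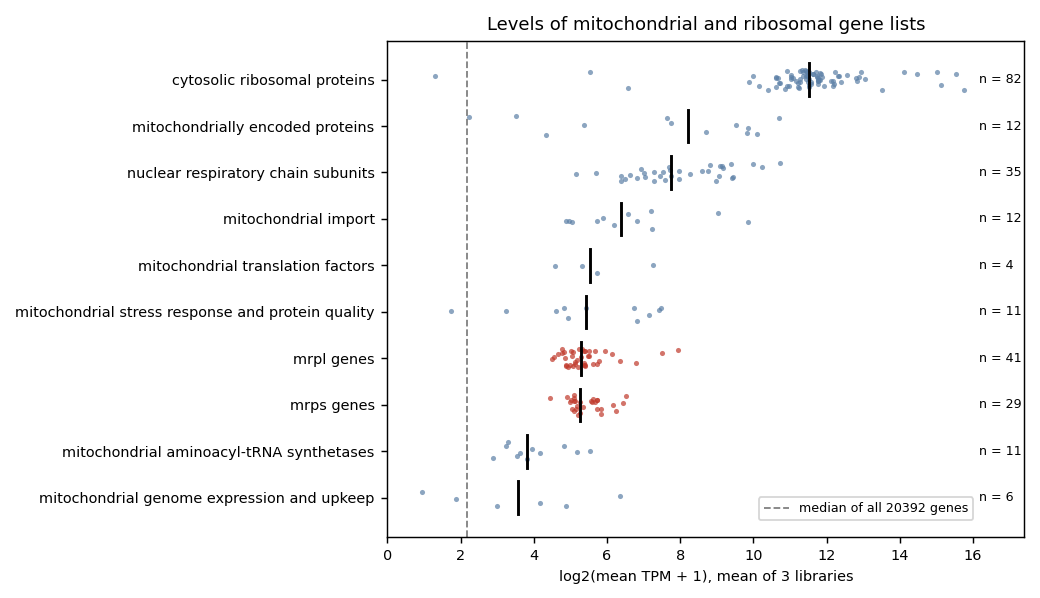
Log2(mean TPM + 1) of each gene (points; vertical scatter has no meaning) in 10 gene lists, with the list median as a black bar and the median of all 20392 genes as a dashed line. By their medians, the mrpl and mrps genes (red) lie between the respiratory chain and import genes above and the synthetases below, while the points of these lists overlap.

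Genes of protein quality control and import were also at middle to high levels. The 11 genes of the mitochondrial unfolded protein response and protein quality control had a median of 41.7 TPM. The prohibitin gene phb-1 stood at 178 ± 6.10 TPM, the chaperonin gene hsp-60 at 171 ± 9.49 TPM, the Hsp70 gene hsp-6 at 113 ± 7.46 TPM, atfs-1, which encodes the transcription factor of that response, at 23.6 ± 4.35 TPM, and haf-1 lowest at 2.35 ± 0.159 TPM. The 12 import genes had a median of 83.3 TPM, from tomm-7 at 929 ± 38.1 TPM and tin-9.1 at 521 ± 38.1 TPM to tin-44 at 28.3 ± 1.69 TPM.

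None of the 70 genes lay on the X chromosome, which held 13.6% of the protein-coding genes of the table. Chromosome III held 23 of them (32.9%, against 13.2% of protein-coding genes), chromosome I 15 (21.4% against 14.4%), chromosome II 12 (17.1% against 17.2%), and chromosomes IV and V 10 each (14.3% against 16.6% and 25.1%). These positions come from the annotation alone and use no TPM value.

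Many of the genes followed closely behind another gene. C. elegans transcribes a part of its genes in operons, in which the genes lie head to tail with short gaps and the joint transcript is cut into separate mRNAs by trans-splicing. The annotation used here does not mark operons, so closeness alone is given. A protein-coding gene on the same strand ended less than 500 nt upstream, or overlapped, for 29 of 70 genes (41.4%), against 20% of protein-coding genes of the table and 22.1% of those detected. The gap measured 80 to 120 nt, a window set after the gaps were seen, for 18 genes (25.7%, against 4.73% of protein-coding genes). Counting downstream neighbours too, 47 of 70 had a close neighbour on their strand, against 38.4% of detected protein-coding genes.

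In 2 cases the neighbour was itself a gene of the mitochondrial ribosome. On chromosome V, mrps-2 (8465686 to 8467159) was followed after 105 nt by mrpl-4 (8467265 to 8468943). The former had 29.4, 32.9 and 31.9 TPM and the latter 25.2, 27.5 and 30.1 TPM, with overlapping ranges. On chromosome II, dap-3 was followed after 105 nt by mrps-22 (10582618 to 10584236), with 33.9, 28.7 and 32.7 TPM in the latter. There dap-3 was above mrps-22 in 3 of 3 libraries.

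Upstream neighbours had a median of 15.1 TPM and the mitochondrial ribosomal genes behind them one of 37.4 TPM. The neighbour was the lower gene in 21 of 29 pairs, where 89.9% of all genes lie below the median member. Those shares are over unlike sets, as 28 of the 29 neighbours were detected against 61.1% of all genes. Spearman's rho between the mean TPM of both genes of a pair was 0.064 over the 29 pairs and 0.23 over 2661 pairs of protein-coding genes. Each is given as a description across genes of the same libraries. Upstream of mrps-14, the nuclear RNA interference gene nrde-2 had 31.01 ± 1.23 TPM at a gap of 105 nt. Upstream of mrps-5, sel-1, whose human relative acts in the degradation of endoplasmic reticulum proteins, had 28.7 ± 0.663 TPM at 103 nt. Upstream of mrps-21, F29B9.11 had 1230 ± 39.6 TPM at 113 nt, many times the level of mrps-21. The other upstream neighbours of the highest genes were lower, with F56B3.9 before mrpl-2 at 0.643 ± 0.161 TPM, F21D5.6 before mrps-33 at 12.997 ± 0.983 TPM and num-1 before mrps-12 at 3.98 ± 0.666 TPM. Before the lowest genes stood F13G3.7 (mrpl-13) at 14.2 TPM, vps-37 (mrpl-48) at 22.9 TPM, zipt-11 (mrpl-24) at 14.9 TPM, ncr-2 (mrps-9) at 1.87 TPM and natc-1 (mrps-2) at 15.1 TPM. Of the 29 upstream neighbours, 11 were highest in replicate 3, a share near the 39.5% of genes averaging 1 TPM or more. Of the mitochondrial ribosomal genes behind them, 23 were highest there. Genes with and without such an upstream gene had medians of 37.4 and 38.1 TPM.

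Exons of 19 of the 70 genes overlapped exons of another gene, 6 on the same strand and 13 on the opposite strand. The share over all genes was not computed, so whether this is many or few is unknown. As a share of the member's exon bases, the overlap of mrps-16 with ilcr-2 on the same strand was the largest, at 27.8% (169 nt). In bases, mrpl-1 with emc-6 (276 nt) and mrps-18A with iglr-2 (195 nt) shared more. The library kit keeps strand, and whether the quantification used it is not stated. Values of these genes may therefore include reads of the partner. No member had values identical to those of another gene.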

How the data were processed

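RNA of 3 wild-type L4 samples was sequenced by the authors after Trizol extraction, DNase, Ribo-Zero Gold depletion and a stranded TruSeq total RNA preparation, per the labels' protocols. The deposited values are TPM per gene, made with kallisto per the submitters' processing notes; of its version, index, genome build and any summing of transcripts nothing was given in the sources used here. The authors' mean column equalled the mean of the 3 libraries up to rounding and was not used. The authors describe the replicates as independent.

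Sequence names were matched to Ensembl release 115 (WBcel235) and RefSeq symbols (20136 of 20392 matched). Of 71 symbols meeting the rule, 70 had a row; mrpl-42 was not analysed here, and mrpl-58 carries its symbol in RefSeq alone. Bacterial families were taken as mrpl numbers up to 36 and mrpl-47, and mrps numbers up to 21 with mrps-24 and mrps-28, leaving out mrps-18A and mrps-18B. Of the names in other lists, gfm-2, mtif-2, mtif-3, mtrf-1, guf-1, wars-2, cars-2 and mterf-3 matched no row under that symbol. The cytosolic list held all rpl, rps and rla symbols.

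Levels were summarised per library as the median of log2(TPM + 1), a pseudocount of 1, then as mean ± SD over the libraries. Members and lists were chosen with earlier results of these data known. Genes are not replicates and there is 1 group, so no test was made. Named genes are a selection from the 5 highest and lowest of each subunit, the 5 most and least variable, the neighbours within 500 nt of those named for level, the 2 highest and the lowest of the other lists, and 13 chosen for their place in the ribosome. Names outside that rule, such as hsp-6, atfs-1, tsfm-1, rpom-1, mrps-16, mrps-18A, mrps-18C, mrps-30 and partners in exon overlaps, were chosen after their values were seen. Alternatives were other pseudocounts and detection limits, filters, rescalings, list means, other gap limits and leaving out each replicate. Scripts were tested on simulated data. Protein features were planned and not analysed here. Python 3.11.15, numpy 2.4.6, pandas 2.3.3, scipy 1.17.1 and matplotlib 3.10.9 were used.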

Additional observations from a re-analysis of the deposited data

How the results depend on the processing

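No paired analysis was possible because the series has 1 group. All 70 genes were detected at limits of 0.5 and 5 TPM and without each replicate. This could not be otherwise, as no member value in any library was below 19.8 TPM. None differed 2-fold in the settings tried, and leaving out a replicate cannot raise that difference. The rescaling to a total without the 100 most abundant genes multiplies all levels by construction, and shifted the median of genes at 1 TPM by 1.09 on the log2 scale. With it the median log2 level was 6.43 for all members, 6.43 for mrpl and 6.42 for mrps genes, and the summed share 0.747%. With a pseudocount of 5 these levels were 5.41, 5.42 and 5.41, and the distance between cytosolic and mitochondrial genes 6.11 (6.25 ± 0.14 as reported). With list means in place of medians the levels were 5.42, 5.40 and 5.44. The difference of mrpl minus mrps changed sign, from 0.0066, to -0.044 with list means, -0.040 without mrpl-36, mrpl-2 and mrpl-44, and -0.10 with mrps-30 and mrps-18A counted as large-subunit genes; the last settings were chosen after the values were seen. The summed share without these 3 genes was 0.278%. The median coefficient of variation ran from 4.82% without replicate 3 to 9.09% without replicate 2. The difference between bacterial and mitochondria-specific families stayed between 0.092 and 0.14 in the settings tried, none of which moved mrps-18A or mrps-18B to the bacterial families. The share of genes with a close upstream neighbour was 32.9% at 250 nt and 51.4% at 1000 nt (13.1% and 30.6% of protein-coding genes). Over median-of-ratios rescaling and leaving out each replicate, all 280 recomputed gene means lay within 1 SD. For leaving out a replicate this was fixed in advance, as dropping 1 of 3 values cannot move their mean by 1 SD. The median-of-ratios factors were close to 1 (1.01, 0.997 and 1.01 in replicates 1, 2 and 3). The count therefore does not measure how steady the levels are. Unknown read depth limits how closely neighbouring levels can be told apart.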
